A study of Mus musculus with 42 samples.

Results

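Axon guidance ligands and receptors were described across neuron types of the adult mouse forebrain. The members were every gene of the Eph receptor, ephrin, semaphorin, plexin, neuropilin, Slit, Robo, netrin, netrin-G, Unc5 and Dcc families whose symbol was the single symbol of a probe set on an Affymetrix mouse expression array. This gave 59 of 12393 genes, read by 99 of 22690 probe sets, and each gene was represented by its brightest probe set. Of the 59 genes, 44 passed a filter on dim genes and were tested among 9295 genes of the array. The remaining 15 were too dim on average to be tested, and their levels are given at the end.

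Guidance molecules steer growing axons: ligands on other cells or in the surrounding matrix attract or repel a growth cone that carries the matching receptor. Ephrins bind Eph receptor tyrosine kinases, semaphorins bind plexins with or without a neuropilin co-receptor, Slits bind Robo receptors, and netrins bind Dcc and Unc5 receptors. In the adult forebrain the same families remain present and are known for roles in synapse structure and plasticity.

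There were 42 arrays in 14 groups of 3, each array made from RNA of 27 to 120 hand-picked fluorescent cells in the sorted groups. All sorted mice were male, aged 57 days or more where a label gives 1 age. Arrays of GIN_Cg, G42_Cg and CT6_Cg labelled with several ages pooled mice, and the series' design states that replicates came from different animals. Affymetrix values were linear intensities as deposited, and every level below is log2 of the intensity plus 16. Levels compare 1 gene across groups and not different genes with each other.

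The 6 interneuron groups were sorted by GFP. The GIN line, described in the labels as a Gad1 inhibitory line, labels somatostatin-positive cells and gave GIN_Cg (cingulate cortex) and GIN_Hip (hippocampus). The G42 line labels parvalbumin-positive cells in cingulate cortex (G42_Cg), and its cells in the lateral geniculate nucleus of the thalamus (G42_LGN) are labelled only as interneurons. The G30 line, labelled only as interneurons, gave G30_Cg and G30_SS (somatosensory cortex). The 4 pyramidal groups were layer 5 cells of the YFPH line in cingulate (YFPH_Cg) and somatosensory cortex (YFPH_SS), YFPH cells of hippocampus (YFPH_Hip), and layer 6 cells of C57BL/6j cingulate cortex that had taken up beads from the medial dorsal thalamus (CT6_Cg). The YFPH line expresses YFP from Thy1 regulatory sequence. Transgenic mice were GIN, G42, G30 or YFPH on a background mixed with C57BL/6j, apart from a GIN_Cg and a G30_Cg array labelled with the transgenic line alone. YFPH_Amy and G30_Amy were labelled neurons of the amygdala with no class given, and GIN_Homog_Cg and G42_Homog_Cg were dissociated but unsorted cingulate cells of the GIN and G42 lines.

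The labelled classes were checked against marker genes. The summed intensity of 6 GABAergic markers was 15224 to 18222 in the interneuron groups and 814 to 1222 in the pyramidal groups, and that of 8 glutamatergic and pyramidal markers was 1818 to 6078 and 12991 to 19996. G30_Amy arrays, labelled only as GFP neurons, had GABAergic sums of 1106 to 2780 and glutamatergic sums of 15149 to 16627. Astrocyte, oligodendrocyte, microglial and endothelial marker sums were lower in every sorted array than in every unsorted one (astrocyte 1291 to 6706 against 18110 to 26192). In the array records, 3 arrays carry a note: YFPH_Hip 1 and YFPH_Amy 2 were abnormally amplified, and YFPH_Cg 3 was sorted by a new method. The Gapdh control gave a log2 ratio of its 3' to its 5' probe set, a sign of RNA and amplification quality that is called the Gapdh signal here, which averaged 1.97 (G42_Homog_Cg) to 3.25 (G30_Amy) by group.

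Promoters are shown for 3 genes whose levels pick out single neuron types below and whose window lies wholly before the annotated gene: Unc5b and Unc5c, which encode related netrin receptors, and Sema5a, which encodes a transmembrane semaphorin. Each is the 250 bases before the start in RefSeq (GRCm38.p6), 5' to 3' on the gene's own strand. Motif searches covered both strands with TATAAA as the core of a TATA box, TAATTA as a homeodomain core, CANNTG as an E-box and GGGCGG as a GC box. Capitals mark every match, which in these 3 windows are all GGGCGG or, where it lies on the opposite strand, its complement CCGCCC.
Unc5b, chr10:60831582-60831831, minus strand: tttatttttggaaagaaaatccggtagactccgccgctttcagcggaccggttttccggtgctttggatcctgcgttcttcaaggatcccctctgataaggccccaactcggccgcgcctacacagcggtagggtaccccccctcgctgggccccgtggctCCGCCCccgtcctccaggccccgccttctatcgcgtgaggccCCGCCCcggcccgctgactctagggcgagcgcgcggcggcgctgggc
Unc5c, chr3:141465314-141465563, plus strand: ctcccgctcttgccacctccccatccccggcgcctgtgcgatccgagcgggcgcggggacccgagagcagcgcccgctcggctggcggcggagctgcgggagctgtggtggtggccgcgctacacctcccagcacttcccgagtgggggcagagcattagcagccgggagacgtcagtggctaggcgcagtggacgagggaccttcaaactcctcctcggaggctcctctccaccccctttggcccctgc
Sema5a, chr15:32244563-32244812, plus strand: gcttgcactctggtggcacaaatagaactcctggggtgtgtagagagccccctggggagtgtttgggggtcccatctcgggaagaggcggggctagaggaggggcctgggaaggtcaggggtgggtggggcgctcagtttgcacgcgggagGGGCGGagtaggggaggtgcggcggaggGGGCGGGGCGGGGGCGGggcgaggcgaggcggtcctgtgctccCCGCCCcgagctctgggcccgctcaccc
The Unc5b window held 2 GGGCGG matches, the Unc5c window 0 and the Sema5a window 5, some of which overlap. GGGCGG was in 32.7% of all 32851 promoters of the same length and in 75.0% of the 64 listed for 51 of the 59 genes. GC content had a median of 64.4% over those 64 and 52.4% over all. TAATTA was in 4.69% of the 64 against 4.84% of all, TATAAA in 3.12% against 12.4%, and CANNTG in 43.8% against 66.2%. These are descriptions of the windows.

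Levels of guidance genes differed widely among neuron types. A moderated F test over the 12 sorted groups (limma, adjusted p below 0.05) called 40 of 44 tested members, where 79.8% of all tested genes were called. All tested ephrins (4), Eph receptors (9), plexins (5), neuropilins (2), Slits (3), Robos (2) and Unc5 and Dcc genes (3) were called, as were the tested netrin and netrin-G. The 4 genes that did not pass, Sema3b, Sema4b, Sema6b and Sema6d, are all semaphorins, and 10 of 14 tested semaphorins passed. Between the highest and lowest sorted group the level spanned at least 2 log2 units for 8 of 44 members (18.2%, against 6.35% of all tested genes), and the median span was 0.82 against 0.68. Nrp1 and Epha5 had the widest spans, 4.47 and 4.43, followed by Ephb6, Slit2, Robo1, Epha4, Epha7 and Unc5c (3.04 to 2.22).

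**Figure D1:**
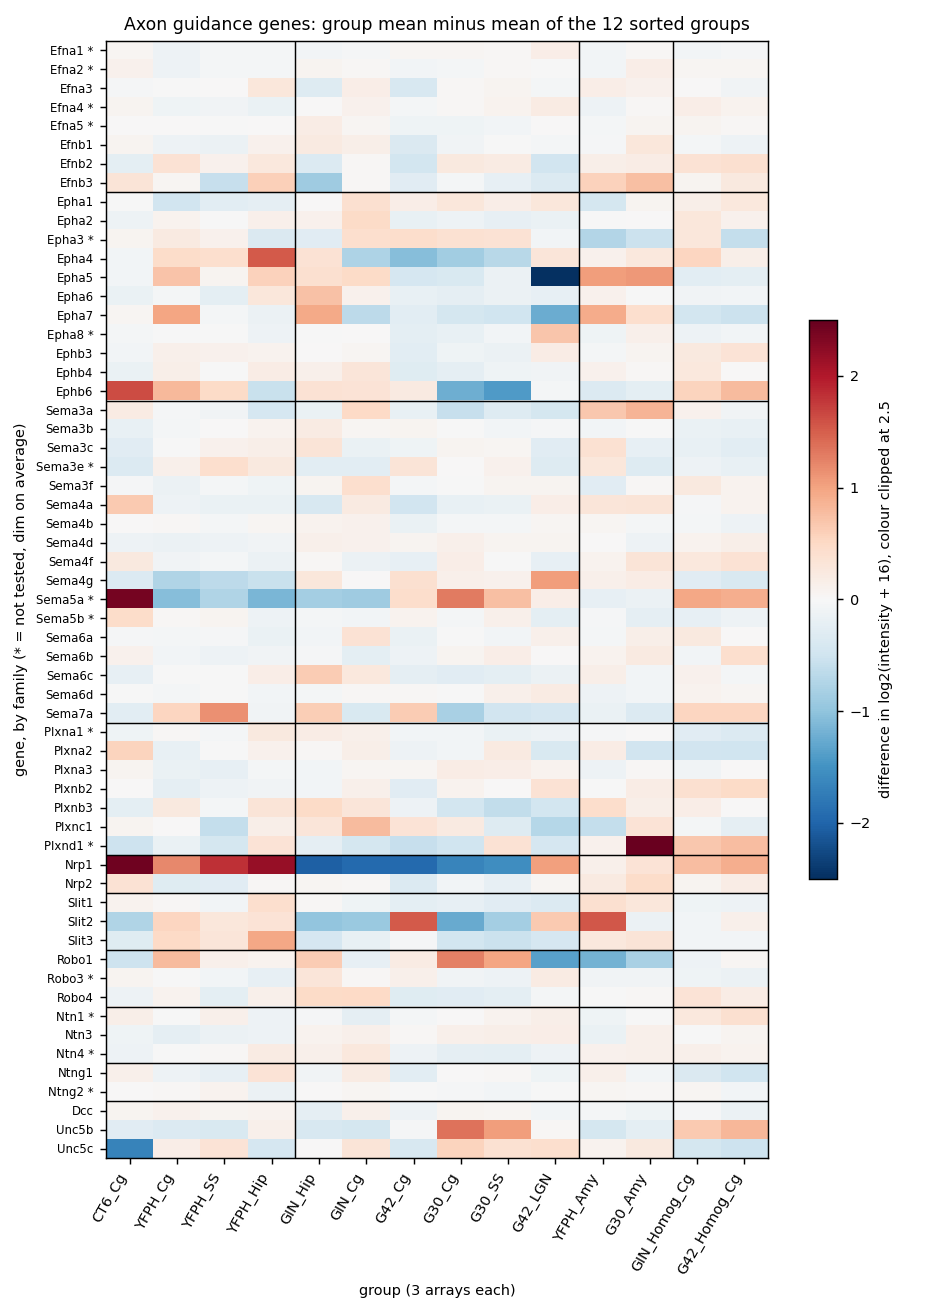
Group means of all 59 genes (vertical axis, by family) in the 14 groups (horizontal axis, 3 arrays each), as log2(intensity + 16) minus the mean of the 12 sorted groups, with colour clipped at 2.5; asterisks mark the 15 genes not tested. Dark cells are few: Nrp1 in the pyramidal and interneuron groups, Epha5 in G42_LGN, Sema5a in CT6_Cg and Plxnd1 in G30_Amy.

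Nrp1 encodes neuropilin 1, a co-receptor for class 3 semaphorins (chromosome 8, 128358591 to 128505476), and was far higher in pyramidal cells than in interneurons of cortex and hippocampus. CT6_Cg arrays read 11.30, 11.06 and 11.65, and YFPH_Hip arrays 10.97, 11.27 and 11.04. YFPH_SS arrays read 11.02, 10.50 and 10.69, and YFPH_Cg arrays 10.49, 9.90 and 9.98. Every pyramidal array thus lay at 9.90 or above.
In contrast, Nrp1 read 6.86, 6.69 and 7.07 in GIN_Hip, 6.72, 7.33 and 6.87 in GIN_Cg, and 7.21, 6.71 and 7.01 in G42_Cg. G30_Cg arrays read 7.12, 7.28 and 7.40 and G30_SS arrays 7.62, 7.54 and 6.90. No array of these 5 groups came near a pyramidal array. G42_LGN was the exception among interneurons, at 9.95, 9.74 and 10.15, which overlapped YFPH_Cg. Both amygdala groups (9.04 ± 0.76 and 9.25 ± 0.22, SD, n = 3) and both unsorted groups (9.68 and 9.82) lay between.

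The pyramidal mean of Nrp1 exceeded the interneuron mean by 3.26 (SE 0.11, 9.57-fold on this scale, limma adjusted p = 2.34e-23), and the group means did not overlap. Its other 2 probe sets gave 2.50 and 3.40. With each sorted group counted as 1 replicate the adjusted p was 0.00959. The difference was 2.85 and 3.60 on the 2 scan days that held 1 array of each class. Among pyramidal groups, CT6_Cg exceeded YFPH_Cg by 1.21 (SE 0.24, adjusted p = 0.000474), though 1 of the other probe sets did not pass (difference 0.58, adjusted p = 0.125). The order from CT6_Cg through YFPH_Hip to YFPH_SS ran over overlapping arrays. Within the G42 line, G42_LGN exceeded G42_Cg by 2.97 (SE 0.24, adjusted p = 4.26e-12), with the other probe sets at 1.56 and 2.21.

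**Figure D2:**
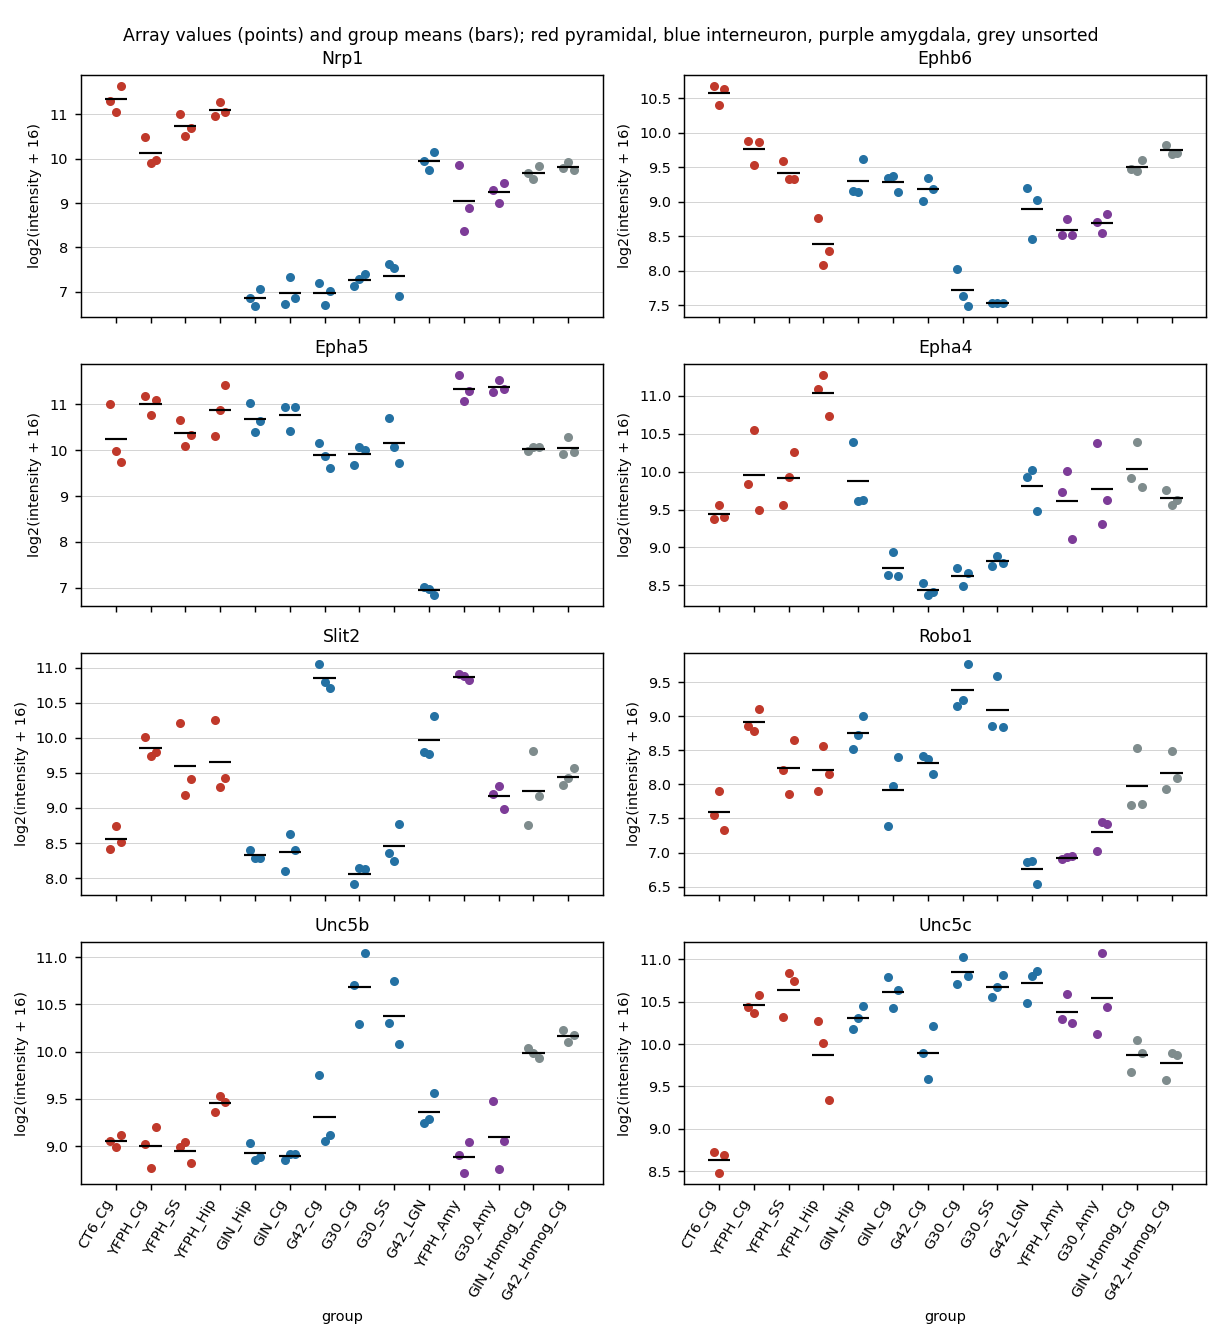
Level of 8 genes as log2(intensity + 16) (vertical axes) on each array (points) with group means (bars) in the 14 groups (horizontal axis); red marks pyramidal, blue interneuron, purple amygdala and grey unsorted groups. Nrp1 separates red from blue except for G42_LGN. Epha5 averages 6.95 in G42_LGN, Unc5b stands out in G30_Cg and G30_SS, and Unc5c is lowest in CT6_Cg.

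Over all members, the contrast of the 4 pyramidal with the 6 interneuron groups called 22 of 44 genes, 50.0%, close to the 49.1% of all tested genes. Of these, 14 were higher (22.0% of all genes were) and 8 lower (27.1%) in pyramidal cells, and the median difference was 0.04 against -0.02 over all genes. Differences were small apart from Nrp1: only Nrp1 and Epha4 reached 1 log2 unit, and 14 of the 22 were under 0.5. All 3 Slits and 2 of 4 tested ephrins, Efnb2 and Efnb3, had a higher mean over the pyramidal groups, as had 4 of 9 Eph receptors. For Slit2, the interneuron groups G42_Cg (10.85) and G42_LGN (9.96) nevertheless averaged above every pyramidal group, of which CT6_Cg (8.56) was lowest. The second Slit2 probe set gave a class difference of -0.07 (adjusted p = 0.323). Neither tested Robo passed.
With each sorted group as 1 replicate, 5 of the 22 passed: Nrp1, higher, and Sema4g, Epha1, Ntn3 and Sema4d, lower in pyramidal cells. These were also the 5 called genes whose group means did not overlap between the classes. Both results rest on the same group means, so this is not a separate check. The share of all genes without such overlap was not counted. With scan year as a block 13 members passed, and Epha1 (difference -0.46), Ntn3 (-0.26) and Sema4d (-0.21) were then not called (adjusted p 0.0747 to 0.16). The shares of all genes that passed in these 2 fits are not given here. All interneuron and CT6_Cg arrays were scanned in year 2, but all YFPH_Hip and most YFPH_Cg and YFPH_SS arrays in year 1. Interneuron mice with 1 age were 57 to 78 days old and YFPH_Hip mice 91 or older. Class thus cannot be fully told apart from scan year and age. On the 2 shared scan days, 21 and 19 of the 22 differences kept their direction, on arrays that were also part of the fit that called them.

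**Figure D3:**
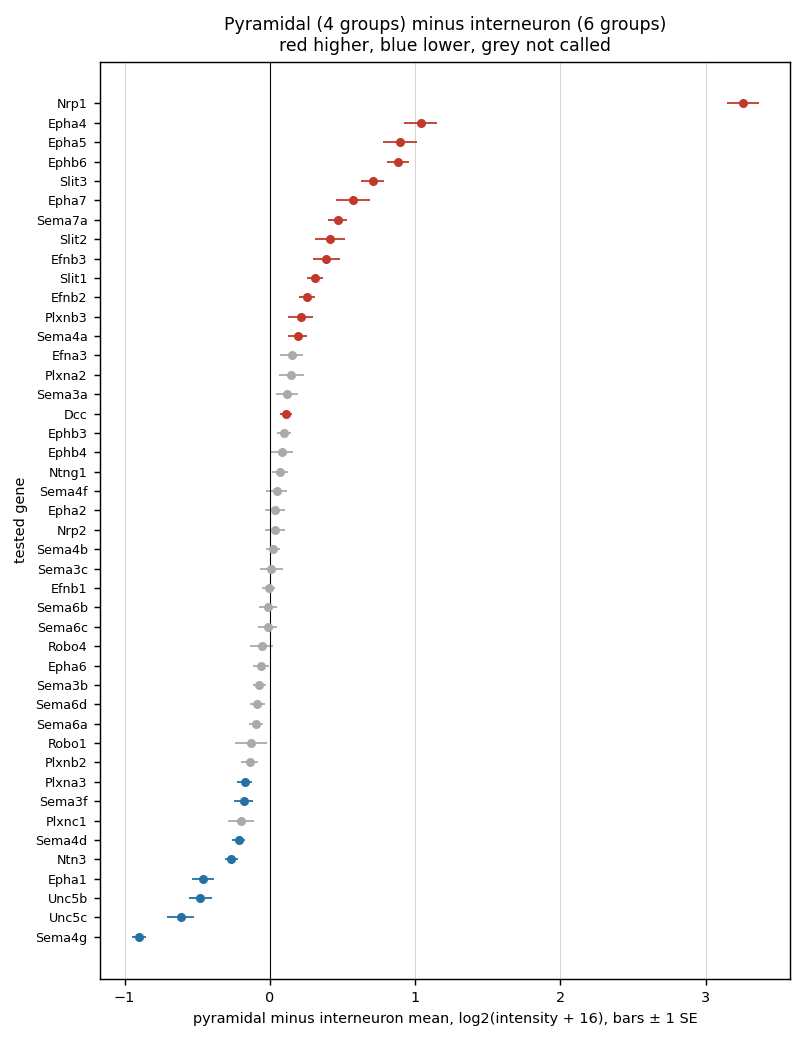
Difference between the mean of 4 pyramidal groups and the mean of 6 interneuron groups (horizontal axis, log2(intensity + 16), bars ± 1 SE) for the 44 tested genes (vertical axis), red where higher and blue where lower in pyramidal cells at adjusted p below 0.05, grey otherwise. Nrp1 stands alone at 3.26, and Sema4g is lowest at -0.90.

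Among the semaphorins, Sema4g, a transmembrane class 4 semaphorin, ran opposite to Nrp1 between the pyramidal and interneuron classes. Its 12 pyramidal arrays lay between 8.98 and 9.61 and its 18 interneuron arrays between 9.69 and 10.99, with no overlap. The difference was -0.90 (SE 0.05, adjusted p = 1.33e-17; 0.0203 with each group as 1 replicate). Its highest group was G42_LGN (10.79, 10.99 and 10.84), above G42_Cg (10.20, 10.29 and 10.21) by 0.64 (SE 0.11, adjusted p = 1.55e-05). Within the classes Sema4g, like Nrp1, was higher in G42_LGN than in G42_Cg and in CT6_Cg than in YFPH_Cg.
Sema7a, a membrane-anchored semaphorin known to act through integrins and plexin C1, did not follow class. YFPH_SS arrays were highest (11.34, 11.46 and 11.11), and G42_Cg (10.88, 10.77 and 10.75), GIN_Hip (10.57, 10.75 and 11.02) and YFPH_Cg (10.85, 10.41 and 10.81) followed with overlapping arrays. GIN_Cg (9.81, 9.80 and 9.73) and G30_Cg (9.49, 9.20 and 9.37) were low. GIN_Cg thus lay 1.03 below G42_Cg (SE 0.15, adjusted p = 1.72e-06) and G30_Cg lay 0.94 below the mean of both (SE 0.13, adjusted p = 9.22e-07). Pvalb, which encodes parvalbumin, averaged 13.42 in G42_Cg, 11.95 ± 0.83 in YFPH_SS and 11.72 in GIN_Hip, against 9.25 in GIN_Cg and 8.77 ± 0.14 in YFPH_Cg (SD, n = 3). The part of parvalbumin cells in the Sema7a levels was not tested. Sema4a, another class 4 semaphorin, had its highest mean in CT6_Cg (11.09), above YFPH_Cg by 0.80 (SE 0.14, adjusted p = 0.000138).

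The Eph receptors held 4 of the 8 widest patterns. Epha5 encodes a receptor for ephrin-A ligands (chromosome 5, 84054761 to 84417818), and its level was low in the geniculate cells: G42_LGN arrays read 7.03, 6.98 and 6.85, and every other sorted array lay at 9.62 or above. Amygdala groups were highest (YFPH_Amy 11.65, 11.08 and 11.30; G30_Amy 11.28, 11.53 and 11.35). G42_LGN was 2.94 below G42_Cg (SE 0.26, adjusted p = 3.74e-11). The second Epha5 probe set did not show this (difference -0.31, adjusted p = 0.198). Nor did it show the class difference of 0.90 (pyramidal minus interneuron), for which it gave -0.07. By the brightest probe set that difference includes the low G42_LGN, and GIN_Cg (10.77) and GIN_Hip (10.69) averaged above YFPH_SS (10.37) and CT6_Cg (10.24).
Ephb6 encodes a receptor that lacks kinase activity, and it separated the G30 interneurons from every other sorted group. G30_Cg arrays read 8.02, 7.64 and 7.49 and G30_SS arrays all 7.53, and all other sorted arrays lay at 8.09 or above. CT6_Cg was highest, at 10.68, 10.40 and 10.64, above YFPH_Cg (9.88, 9.53 and 9.86) by 0.82 (SE 0.16, adjusted p = 0.000615). G30_Cg was 1.51 below the mean of GIN_Cg and G42_Cg (SE 0.14, adjusted p = 3.50e-10), and no arrays overlapped.

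Epha4 binds ephrins of both classes and was highest in hippocampal pyramidal cells (11.09, 11.28 and 10.73), with no overlap with any other sorted group. Cortical interneurons were lowest: GIN_Cg read 8.64, 8.94 and 8.62, and G42_Cg 8.53, 8.38 and 8.42. YFPH_Hip exceeded YFPH_Cg by 1.07 (SE 0.25, adjusted p = 0.00316), which was not called without the 3 noted arrays (adjusted p = 0.0783), and its second probe set gave 0.29 (adjusted p = 0.136).
Epha4 was also higher in GIN_Hip than in GIN_Cg, by 1.14 (SE 0.25, adjusted p = 0.00128), and in G42_LGN than in G42_Cg, by 1.36 (SE 0.25, adjusted p = 5.73e-05). The second probe set gave 0.16 and 0.05 for these comparisons and did not pass. Epha7, another ephrin-A receptor, is described with the hippocampus. Epha6 was 0.61 higher in GIN_Hip than in GIN_Cg (SE 0.12, adjusted p = 0.000378).

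The ephrins moved less. Efnb3, a transmembrane ephrin known from the midline of the nervous system, had the widest span among them, 1.64, from GIN_Hip (9.26, 8.31 and 8.95) to G30_Amy (10.69, 10.25 and 10.50). All neighbours in its order overlapped. Efnb2 had the largest F of the family (13.5; adjusted p = 1.56e-08), with CT6_Cg 0.59 below YFPH_Cg (SE 0.11, adjusted p = 0.000354). Of the other 2 Efnb2 probe sets tested, 1 gave -0.99 for that comparison and 1 gave -0.11, the latter not called.

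Slit2 encodes a secreted repellent of axons (chromosome 5, 47981291 to 48307735). By its brightest probe set it was highest in parvalbumin cells of cingulate cortex (11.06, 10.79 and 10.71) and in YFPH_Amy (10.90, 10.88 and 10.82), which overlapped each other and no other sorted group. GIN_Cg arrays read 8.10, 8.63 and 8.40, G30_Cg arrays 7.92, 8.14 and 8.13, and CT6_Cg arrays 8.42, 8.74 and 8.52. The first of these groups was 2.48 below G42_Cg (SE 0.23, adjusted p = 2.24e-10).
CT6_Cg was 1.29 below YFPH_Cg in Slit2 (SE 0.23, adjusted p = 0.000121), and YFPH_Amy was 1.70 above G30_Amy (SE 0.23, adjusted p = 1.65e-06). A second Slit2 probe set ranged only from 8.09 to 8.51 over the sorted groups and called none of these 3 (differences 0.13, 0.29 and 0.10). The 2 probe sets therefore disagree on Slit2, and the pattern belongs to 1 of them. Slit3 had its highest means in YFPH_Hip (9.10) and YFPH_Cg (8.64), with CT6_Cg 0.80 below YFPH_Cg (SE 0.18, adjusted p = 0.00193).

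Robo1, a Slit receptor, was highest in the G30 interneurons of cortex (G30_Cg 9.15, 9.23 and 9.77; G30_SS 8.85, 9.59 and 8.84) and in YFPH_Cg (8.86, 8.78 and 9.10), whose arrays overlapped. It was lowest in G42_LGN (6.85, 6.88 and 6.54) and YFPH_Amy (6.90, 6.94 and 6.94), which did not overlap. G30_Cg exceeded the mean of GIN_Cg and G42_Cg by 1.27 (SE 0.21, adjusted p = 2.71e-05). G42_LGN was 1.56 below G42_Cg (SE 0.24, adjusted p = 5.65e-06), and CT6_Cg 1.32 below YFPH_Cg (SE 0.24, adjusted p = 0.000211). Robo4, known mainly from blood vessels, was 0.80 higher in GIN_Cg than in G42_Cg (SE 0.17, adjusted p = 0.000607), and endothelial marker sums were 1756 to 1928 and 1689 to 1830 there; their part in the result was not tested.

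The Unc5 receptors, which mediate repulsion by netrins, picked out different cells. Unc5b read 10.71, 10.29 and 11.04 in G30_Cg and 10.30, 10.75 and 10.08 in G30_SS, and no other sorted array exceeded 9.76. G30_Cg exceeded the mean of GIN_Cg and G42_Cg by 1.58 (SE 0.15, adjusted p = 5.09e-10). Unc5c read 8.72, 8.48 and 8.69 in CT6_Cg, and every other sorted array lay at 9.34 or above. The CT6_Cg mean was 1.83 below that of YFPH_Cg (10.43, 10.37 and 10.58; SE 0.20, adjusted p = 2.15e-08).
Dcc, a receptor for attraction by netrins, was near even: its sorted groups spanned 0.34. Ntn3, the tested netrin, spanned 0.39. Ntng1, which encodes a membrane-anchored netrin relative, had 2 probe sets that were called in opposite directions in 3 comparisons, GIN_Cg against G42_Cg among them (0.46 and -0.83), so its direction depends on the probe set, and counts below take its brightest.

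Plexins, the semaphorin receptors, were led by Plxnc1 (F 11.4; adjusted p = 1.23e-07). GIN_Cg was its highest group (10.76, 10.44 and 10.65), and YFPH_Amy (9.33, 9.26 and 9.09) and G42_LGN (9.12, 9.32 and 8.88) were low. G42_LGN was 1.06 below G42_Cg (SE 0.19, adjusted p = 7.30e-05), and YFPH_Amy 0.93 below G30_Amy (SE 0.19, adjusted p = 0.000917). Plxna2 was 0.74 higher in CT6_Cg than in YFPH_Cg (SE 0.19, adjusted p = 0.00726), which was not called with the Gapdh signal as a covariate (adjusted p = 0.0818). Plxnb2 was 0.64 higher in G42_LGN than in G42_Cg (SE 0.13, adjusted p = 0.00029). Nrp2, the second neuropilin, was 0.68 higher in CT6_Cg than in YFPH_Cg (SE 0.15, adjusted p = 0.00209).

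Taken by comparison, somatostatin and parvalbumin interneurons of cingulate cortex differed in 20 of 44 members (45.5%, where 29.4% of all tested genes were called). In GIN_Cg 17 were higher (17.6% of all genes were) and 3 lower (11.8%), the latter being Slit2, Sema7a and Sema4g (-0.39). The higher genes included Epha5 (0.88), Unc5c (0.72), Sema4a (0.70), Sema3a (0.67), Epha2 (0.66), Ephb4 (0.61) and Efna3 (0.56). Of all genes called, 59.9% were higher in GIN_Cg. With each array centred on its median, which moves the median of all genes from 0.07 to -0.03, 39.3% were higher over all genes and 14 against 4 over members. Quantile normalization gave 49.8% and the same 14 against 4.
Oligodendrocyte marker sums were 1652 to 1978 in GIN_Cg and 1054 to 1151 in G42_Cg, glutamatergic sums 2383 to 3598 and 1818 to 2331, and Nrgn averaged 10.38 and 8.52; their part in the results was not tested. The Gapdh signal was 3.21 ± 0.37 in GIN_Cg and 1.98 ± 0.20 in G42_Cg (SD, n = 3). With it as a covariate 7 members were called, and Epha5, Unc5c, Sema3a, Ephb4 and Efna3 were among those that were not (adjusted p 0.0647 to 0.491). The share of all genes called with this covariate is not given here, so the lower count is not a result about members alone. Sema4g was not called when GIN_Cg and G42_Cg were fitted alone (adjusted p = 0.0599). No scan day held arrays of both groups, so day and cell type cannot be told apart there. Without G42_Cg array 3 Epha5 (adjusted p = 0.0551) and Efna3 (0.12) were lost, without G42_Cg array 2 Unc5c (0.0591), without GIN_Cg array 2 Ephb4 (0.0571) and without GIN_Cg array 3 Efna3 (0.0589).

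G30_Cg differed from the mean of GIN_Cg and G42_Cg in 9 members (20.5%, against 17.2% of all genes), 4 higher (background 8.25%) and 5 lower (8.92%). Those with no overlap between arrays were Unc5b and Robo1, higher, and Ephb6, Sema7a and Sema3a (-0.73; SE 0.15, adjusted p = 0.000486), lower. These 5 stayed called under each of the 19 or 20 alternatives run for them. Sema3a encodes a secreted ligand that binds Nrp1. The count of 9 is close to the share of all genes. G30_Cg shared no scan day with GIN_Cg or G42_Cg, so day and cell type cannot be told apart there either.

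Layer 6 and layer 5 pyramidal cells of cingulate cortex differed in 14 members, 31.8% against 12.5% of all tested genes. In CT6_Cg 6 were higher, namely Nrp1, Ephb6, Sema4a, Plxna2, Nrp2 and Sema4g (0.40), where 5.97% of all genes were higher, and 8 were lower, where 6.54% were. The lower ones were Unc5c, Robo1, Slit2, Epha7 (-0.94), Slit3, Sema7a (-0.78), Efnb2 and Epha5. Arrays overlapped only for Epha5, and the share of all called genes without overlap was not counted. The call was lost for Epha7 without CT6_Cg array 3 (adjusted p = 0.152) and with the Gapdh covariate (0.144). Sema4g was not called without CT6_Cg array 2 (0.0572) or without YFPH_Cg array 2 (0.0584). With CT6_Cg and YFPH_Cg fitted alone Epha7, Sema7a, Nrp2 and Sema4g were not called (0.052 to 0.0707).
These 2 groups shared no scan day, so day and cell type cannot be told apart there. CT6_Cg cells came from C57BL/6j mice and were marked by beads, whereas YFPH_Cg cells came from a transgenic line on a mixed background. Mouse line and labelling method thus cannot be told apart from layer either. The Gapdh signal was 2.86 in CT6_Cg and 2.12 in YFPH_Cg.

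The geniculate cells differed from cingulate cells of the same G42 line in 15 members (34.1%, against 26.2% of all genes), 9 higher (13.9%) and 6 lower (12.2%). The higher ones with the largest differences were Nrp1, Epha4, Unc5c (0.82), Sema4g, Plxnb2 and Sema4a (0.63). The lower ones were Epha5, Robo1, Sema7a (-1.06), Plxnc1, Epha7 (-0.97) and Slit2 (-0.89). Epha7 was not called with the Gapdh covariate (adjusted p = 0.122), nor Slit2 as the mean of its probe sets (0.053), and Sema6a (0.30; adjusted p = 0.0388) was lost under 11 of 16 alternatives. The Gapdh signal was 2.89 in G42_LGN and 1.98 in G42_Cg, and no scan day held both.

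Hippocampus was compared with cingulate cortex in YFPH pyramidal cells and in GIN interneurons. Epha4, Epha7 and Sema7a were called in both lines, and Epha4 was higher in hippocampus in both. YFPH_Hip differed from YFPH_Cg in 7 members (15.9%, against 10.0% of all genes), 4 higher (4.45%) and 3 lower (5.56%). With quantile normalization the split was 4 and 4, and with median centring 4 and 5. Without the 3 noted arrays 3 members were called, and Slit1 (0.39), Ntng1, Sema7a (-0.62) and Epha4 were not. The share of all genes called without those arrays is not given here. GIN_Hip differed from GIN_Cg in 13 members (29.5%, against 18.3% of all genes), 6 higher (9.79%) and 7 lower (8.53%). Median centring gave 8 and 6. The Gapdh signal was 2.53 in YFPH_Hip and 2.12 in YFPH_Cg, and 2.43 in GIN_Hip and 3.21 in GIN_Cg, and neither pair shared a scan day. YFPH_Hip mice were 91 days or older and the YFPH_Cg mice with 1 age 65 and 80 days, so age and region cannot be told apart there. In GIN_Hip, 3 of the 6 GABAergic markers were called lower than in GIN_Cg, and their part in these results was not tested.
Epha7 showed the clearest contrast. In interneurons it read 9.63, 9.74 and 9.50 in GIN_Hip and 8.44, 8.18 and 7.49 in GIN_Cg, higher in hippocampus by 1.59 (SE 0.26, adjusted p = 2.92e-05). In pyramidal cells it read 8.14, 8.35 and 9.10 in YFPH_Hip and 9.74, 9.77 and 9.52 in YFPH_Cg, lower by 1.15 (SE 0.26, adjusted p = 0.0023). The arrays of neither pair overlapped, although 1 of its other probe sets did not call the pyramidal difference (-0.43; adjusted p = 0.546). By the brightest probe set the region differences ran in opposite directions.

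The test of that difference between lines called 10 members (22.7%, close to the 20.9% of all genes), 6 with a larger (9.83% of all genes) and 4 with a smaller value (11.1%) in YFPH than in GIN. Epha7 led at -2.73 (SE 0.36, adjusted p = 1.02e-06), and its other 2 probe sets gave -2.61 and -3.23, both called. Sema7a followed at -1.63 (SE 0.21, adjusted p = 5.88e-07), being 1.00 higher in GIN_Hip than GIN_Cg (adjusted p = 7.02e-06), a pair whose Pvalb means ran the same way, and 0.62 lower in YFPH_Hip than YFPH_Cg. Robo1 (-1.54; SE 0.34, adjusted p = 0.00132) had region differences of 0.83 in the GIN line and -0.71 in the YFPH line, the latter not called (adjusted p = 0.0572). The former was lost without GIN_Hip array 3 (adjusted p = 0.0834) or GIN_Cg array 1 (0.124).
Ephb6 (-1.39; SE 0.23, adjusted p = 4.33e-05) was 1.37 lower in YFPH_Hip than YFPH_Cg and differed by 0.02 in the GIN line. Efnb3 (1.45; SE 0.29, adjusted p = 0.000503) was 0.91 lower in GIN_Hip than GIN_Cg, with arrays of 9.26, 8.31 and 8.95 against 9.93, 9.47 and 9.85.

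Cortical areas were compared within the YFPH and the G30 line. Layer 5 cells of somatosensory cortex differed from those of cingulate cortex in 2 members (4.55%, against 1.59% of all genes). Sema7a was 0.61 higher (0.871% of all genes were called higher and 0.721% lower; SE 0.15, adjusted p = 0.0192) and Epha7 1.05 lower (SE 0.26, adjusted p = 0.023). The Pvalb mean, given with Sema7a above, was also the greater in YFPH_SS, and its part in these differences was not tested. With scan day as a fixed block neither was called (adjusted p 0.313 and 0.928), nor was either without YFPH_Cg array 2 (0.219 and 0.113) or without YFPH_SS array 2 (0.162 and 0.174). Epha7 was also lost without YFPH_Cg array 1 (0.0963) or YFPH_SS array 3 (0.0945). On the scan day with 1 array of each group, Sema7a was 0.49 higher and Epha7 0.87 lower.
G30 cells of the same areas differed in 0 members by limma (0.183% of all genes were called, 0.161% higher and 0.0215% lower), with 2 at an unadjusted p below 0.05, Plxnc1 and Sema7a. The test of the difference between these area effects called 0 members (0.452% of all genes, 0.172% higher and 0.28% lower), again with 2 at an unadjusted p below 0.05, Epha5 and Epha7. Both counts of 0 lie near the share of all genes. Between G30_Cg and G30_SS 2 pairs of arrays shared an age and a scan day, as did 1 pair between YFPH_Cg and YFPH_SS, and the labels do not say whether such arrays came from 1 animal. With such arrays as a block, a setting chosen after seeing the data, 3, 0 and 0 members were called in the 3 tests of area, and Sema7a (adjusted p = 0.0209) and Epha7 (0.0169) were still called in the YFPH line.

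The amygdala populations differed in 7 members (15.9%, against 17.4% of all genes), with 3 higher (9.21%) and 4 lower (8.15%) in YFPH_Amy than in G30_Amy. The split was 3 and 2 with quantile normalization. Beside Slit2 and Plxnc1, Plxna2 was 0.67 higher in YFPH_Amy (SE 0.19, adjusted p = 0.0135), and was lost without YFPH_Amy array 1 (0.0998) or G30_Amy array 3 (0.0681). Epha1 (-0.51), Efnb1 (-0.30) and Ntn3 (-0.30) were each lost without YFPH_Amy array 2, the abnormally amplified one (0.0627 to 0.109), without G30_Amy array 2 (0.065 to 0.104) and without G30_Amy array 3 (0.054 to 0.0654), and with the Gapdh covariate (0.111 to 0.366). Epha1 and Ntn3 were lost too without YFPH_Amy array 3 (0.0692 and 0.0802), Epha1 without YFPH_Amy array 1 (0.0711) and Ntn3 without G30_Amy array 1 (0.0754). The Gapdh signal was 2.29 in YFPH_Amy and 3.25 in G30_Amy, and no scan day held both. YFPH_Amy mice were 91 days or older and G30_Amy mice 60 to 79 days, so age and group cannot be told apart.

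Sorted interneurons were compared with unsorted cingulate cells of the same line, which mix neurons and glia, so that fewer cells of a type and less RNA per cell cannot be told apart there. GIN_Cg differed in 13 members (29.5%, against 29.4% of all genes), 6 higher (15.3%) and 7 lower (14%). G42_Cg differed in 16 (36.4%, against 32.3%), 3 higher (15.5%) and 13 lower (16.8%). With median centring the second split was 5 and 11, and over all genes the higher share moved from 48.0% to 62.2%. Nrp1 differed by -2.71 and -2.84 in these comparisons (SE 0.24 each), Epha4 by -1.30 and -1.21 (SE 0.25 each), and Unc5b by -1.08 and -0.86 (SE 0.17 each), all with an adjusted p of 0.000197 or less. The second Epha4 probe set was not called for GIN_Cg (-0.13).
Higher in GIN_Cg than in its unsorted cells were Plxnc1 (0.85; SE 0.19, adjusted p = 0.00091) and Unc5c (0.75; SE 0.20, adjusted p = 0.00419). In G42_Cg, Slit2 was higher (1.41, SE 0.23, adjusted p = 6.70e-06) and so was Sema4g (0.79, SE 0.11, adjusted p = 2.35e-07). Slit2 was lower in GIN_Cg (-0.87, SE 0.23, adjusted p = 0.00341), a call lost without GIN_Homog_Cg array 2 (0.0652) and with the Gapdh covariate (0.072). The second Slit2 probe set showed neither difference: it averaged 8.37 in G42_Cg and 8.45 in G42_Homog_Cg, and 8.50 in GIN_Cg and 8.51 in GIN_Homog_Cg. All 13 and 16 differences kept their direction on each scan day that held both groups (3 and 2 days). These arrays were also part of the fit that gave the calls, so this was not a separate check. The glial marker sums above moved with these comparisons, and their part in the results was not tested.

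**Figure D4:**
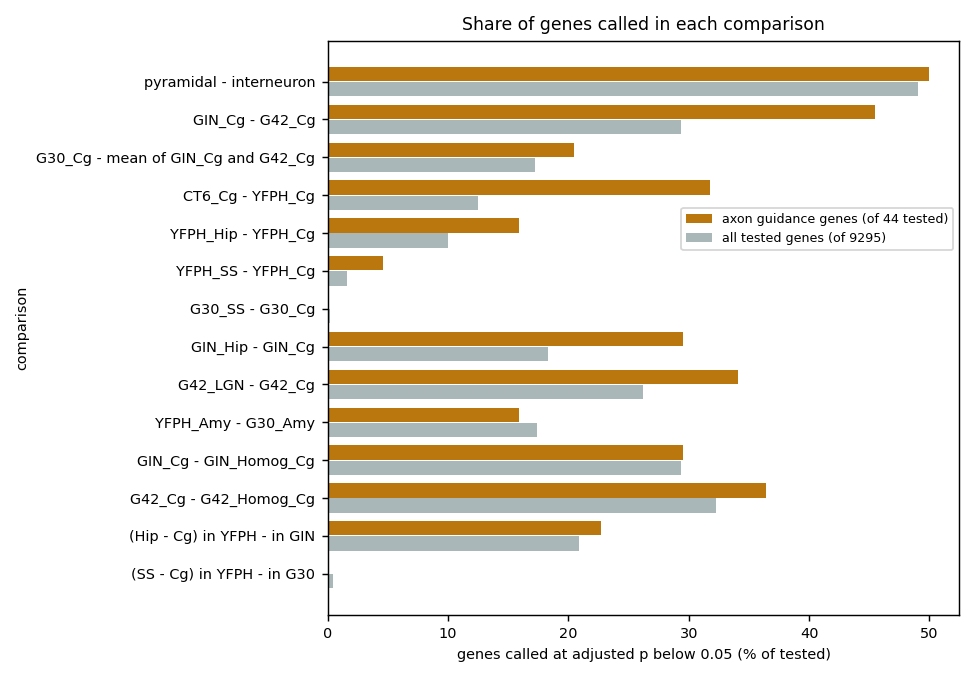
Percentage of genes called at adjusted p below 0.05 (horizontal axis) in each of 14 comparisons (vertical axis), for the 44 tested guidance genes and for all 9295 tested genes. The last 2 comparisons are differences of differences. The guidance share is 31.8% against 12.5% in CT6_Cg minus YFPH_Cg and 45.5% against 29.4% in GIN_Cg minus G42_Cg, and close to that of all genes in the pyramidal minus interneuron contrast.

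Partner molecules were counted from lists chosen by function. Of 41 co-receptors, co-ligands and adhesion partners 27 were tested, and 20 were called between pyramidal cells and interneurons, 12 higher and 8 lower, where 49.1% of all tested genes were called (22.0% higher and 27.1% lower). Those with the largest differences were Cxcl12, a chemokine that modulates axon responses (3.05; SE 0.15, adjusted p = 9.22e-19), Bdnf, a neurotrophin (1.29; SE 0.08, adjusted p = 1.40e-16), and Nrcam, an adhesion molecule found in semaphorin receptor complexes (1.04; SE 0.07, adjusted p = 1.32e-14). Of 58 genes that signal downstream of guidance receptors 40 were tested and 24 called, 13 higher and 11 lower, against the same shares of all genes. Chn1, which encodes a chimaerin that acts downstream of EphA4, was 2.02 higher (SE 0.10, adjusted p = 3.42e-18). Ngef, which encodes ephexin, an EphA partner, was 1.99 higher (SE 0.08, adjusted p = 2.78e-21). The SEs, adjusted p values and counts of this contrast rest on the spread of arrays within groups. Results with each sorted group as 1 replicate are not given for these lists.
In the other comparisons, the partner list had 13 of 27 called between GIN_Cg and G42_Cg (11 higher, 2 lower), 4 between CT6_Cg and YFPH_Cg (all lower) and 13 between G42_LGN and G42_Cg (7 higher, 6 lower). The signalling list had 6 (1 and 5), 11 (5 and 6) and 20 of 40 (8 and 12). Of all tested genes 29.4%, 12.5% and 26.2% were called in these 3 comparisons.

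The 15 dim genes were Efna1, Efna2, Efna4, Efna5, Epha3, Epha8, Ntn1, Ntn4, Ntng2, Plxna1, Plxnd1, Robo3, Sema3e, Sema5a and Sema5b. When the filter was dropped, 10 of them passed the F test, where 75.1% of all 12393 genes did. Sema5a and Plxnd1 were singled out after their values were seen, since their means are low but their highest groups are not.
Sema5a read 8.96, 8.71 and 9.65 in CT6_Cg, 8.18, 8.26 and 7.61 in G30_Cg and 7.40, 7.43 and 7.57 in G30_SS. In YFPH_Cg it read 5.61, 5.58 and 5.77, in GIN_Cg 5.72, 5.92 and 5.84, and in YFPH_Hip 5.70, 5.72 and 5.34. By this probe set layer 6 cells were above every other group, with no overlap. Without the filter, CT6_Cg exceeded YFPH_Cg by 3.45 (SE 0.24, adjusted p = 5.11e-13) and G30_Cg exceeded the mean of GIN_Cg and G42_Cg by 1.52 (SE 0.21, adjusted p = 1.30e-06). A second Sema5a probe set, dimmer on average but not in every group, showed neither pattern. By it CT6_Cg (6.97) lay below G30_Amy, its highest group, and G30_Cg (6.72) lay between GIN_Cg (6.76) and G42_Cg (6.54).

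Plxnd1, the receptor of Sema3e, read 9.84, 9.41 and 10.35 in G30_Amy and 7.82 or less on every other sorted array. YFPH_Amy read 7.55, 7.52 and 7.43, a difference of -2.37 (SE 0.15, adjusted p = 1.83e-13 without the filter). It was also higher in G30_SS (7.82, 7.82 and 7.64) than in G30_Cg (6.97, 6.87 and 6.83), by 0.87 (SE 0.15, adjusted p = 0.00219). Glutamatergic marker sums were 3147 to 6078 in G30_SS and 2181 to 2263 in G30_Cg, 2 of 6 tested markers were called higher, and Nrgn averaged 11.05 against 8.86. Their part in the Plxnd1 difference was not tested. Sema3e itself was 0.59 higher in YFPH_Amy than in G30_Amy (SE 0.17, adjusted p = 0.017). Epha8 was 0.93 higher in G42_LGN than in G42_Cg (SE 0.11, adjusted p = 5.91e-08).

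**Figure D5:**
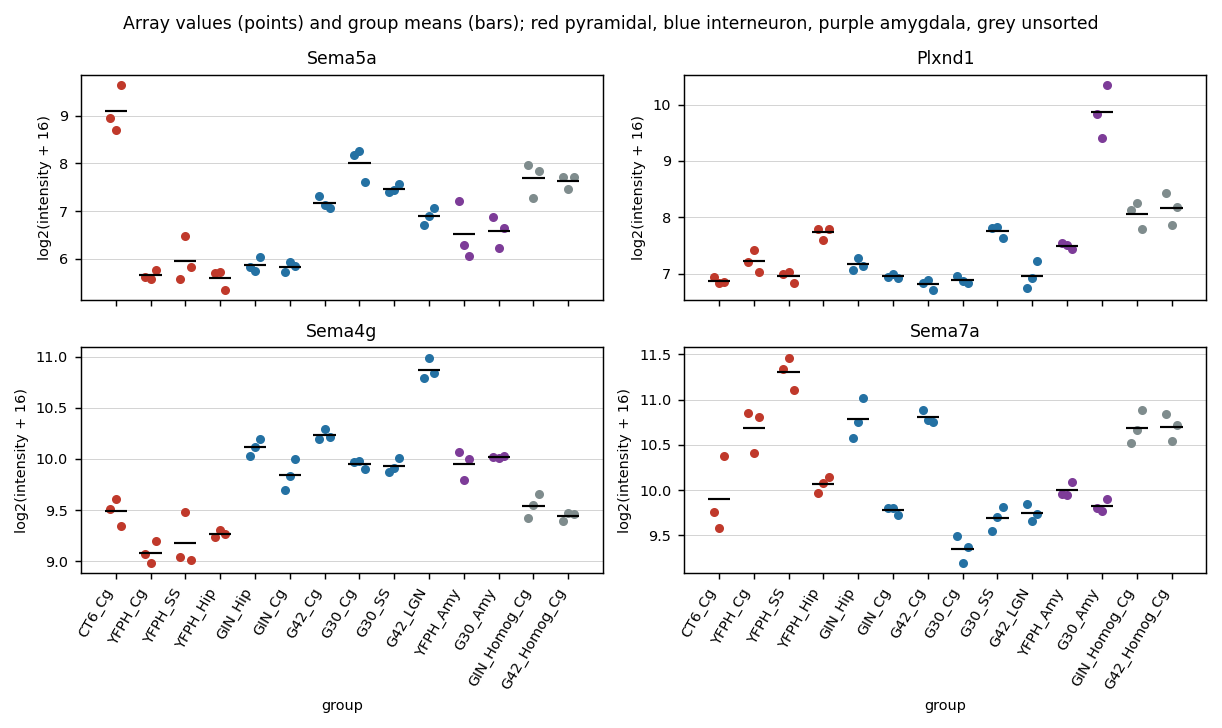
Level of Sema5a, Plxnd1, Sema4g and Sema7a as log2(intensity + 16) (vertical axes) on each array (points) with group means (bars) in the 14 groups (horizontal axis); red marks pyramidal, blue interneuron, purple amygdala and grey unsorted groups. Sema5a stands out in CT6_Cg (9.11 on average), Plxnd1 in G30_Amy (9.87) and Sema4g in G42_LGN (10.87), and Sema7a is highest in YFPH_SS.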

How the data were processed

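The authors deposited linear intensity values for 22690 probe sets on 42 arrays. Their summarisation and scaling are not given in the sources used here. Other facts came from array records, per the file headers: 21 scan days, 3 scan years and 11 lots. Values became log2(intensity + 16). Probe sets with 1 gene symbol in the platform annotation were kept, and the brightest stood for each gene. Genes with a mean under the 25th percentile (log2 7.77) were not tested. A mean per group was fitted over all arrays with limma 3.58.1 in R 4.3.3 (28 residual degrees of freedom, moderated variances with trend and robust estimation), with Benjamini-Hochberg adjustment over 9295 genes per comparison and a threshold of 0.05. The 3 arrays a group limit precision. The fit was tested on simulated data. Members and lists were chosen with earlier results of these data known. Genes were named by a rule: up to 8 called members a direction with the largest differences and no overlap between groups, the 12 widest spans, the largest F of each family and members not called by F. Further members, Sema5a and Plxnd1 among them, were named after their values were seen. Overlap between groups was checked for members only, so no share of all genes stands beside it. Replicates are different animals per the labels. Alternatives covered scaling, offset, filter, probe sets, scan day and year, Gapdh signal, noted arrays and leaving out each array. The result for 1 gene of the signalling list is not reported here.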

Additional observations from a re-analysis of the deposited data

Results flagged for a closer look

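The difference between hippocampus and cingulate cortex was not the same in the YFPH line (pyramidal cells) as in the GIN line (somatostatin interneurons) for 10 members, by limma's test of that difference of differences (adjusted p below 0.05). That is 22.7% of tested members, close to the 20.9% of all tested genes. Beside Epha7 (-2.7345), Sema7a (-1.6255), Robo1 (-1.5397), Ephb6 (-1.3946) and Efnb3 (1.4494), the values in YFPH minus GIN were 1.074 for Nrp1, 0.77 for Efna3, 0.7551 for Ntng1, 0.7095 for Slit3 and 0.6032 for Sema4a. Nrp1 was 0.97 higher in YFPH_Hip than in YFPH_Cg and differed by -0.10 in the GIN line. Sema4a was 0.62 lower in GIN_Hip than in GIN_Cg, and Efna3 differed by -0.48, a call lost under 13 of 16 alternatives (adjusted p = 0.371 with the Gapdh covariate). As the mean of its probe sets Ntng1 turned to -0.286. Slit3 was not called with quantile normalization (adjusted p = 0.059) or median centring (0.0518). With the Gapdh covariate Nrp1 (adjusted p = 0.186), Efna3 (0.276), Slit3 (0.135) and Sema4a (0.169) were not called. Leaving out single arrays, GIN_Hip 2 and YFPH_Hip 2 among them, also ended the call of these 4 genes. Groups of 3 arrays are too small for a test of single arrays that stand apart from their group.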

How the results depend on the processing

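Over 15 comparisons, 302 of 334 counts of called members obtained under alternatives stayed within 1.5 times the reported count, and the others follow. Shares of all genes called under the same settings are not given beside these counts, here, above or below. A changed count is therefore not a result about the members alone. Between pyramidal cells and interneurons 13 members were called with scan year as a block and 5 with each sorted group as 1 replicate. With the Gapdh covariate the counts were 7 for GIN_Cg against G42_Cg, 8 for GIN_Hip against GIN_Cg, 3 for the amygdala groups, 8 for GIN_Cg against its unsorted cells, 1 for YFPH_SS against YFPH_Cg and 6 for the difference between lines in hippocampus. With the filter at the 50th percentile, which tests fewer genes, they were 6 for GIN_Hip against GIN_Cg, 3 for amygdala, 1 for YFPH_SS against YFPH_Cg and 6 for the difference between lines. Without the 3 noted arrays 3 were called for YFPH_Hip against YFPH_Cg and 4 for amygdala. With the compared arrays alone 7 were called for GIN_Hip against GIN_Cg and 1 for YFPH_SS against YFPH_Cg; for the latter pair the mean of all probe sets and the fixed scan day each gave 0. Without a filter G30_SS against G30_Cg and the difference between area effects each gave 1, Plxnd1 in both. Leaving out each array in turn gave 0 to 2 for YFPH_SS against YFPH_Cg, 3 to 6 for amygdala and 6 to 11 for the difference between lines in hippocampus. As the mean of all probe sets Ntng1 turned its direction for GIN_Cg against its unsorted cells (-0.2188) and for the difference between lines (-0.286). For 109 named differences, 1868 of 2057 results under alternatives kept direction and call and 187 were no longer called. The cause was not tested. In a fit of single probe sets, 92 pairs over all comparisons set a called brightest probe set of a member beside a further one. Both were called in the same direction in 44 pairs and in opposite directions in 3, and only the brightest was called in 45.

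Replicate numbers did not pair the arrays: of 60 correlations between same-numbered arrays 9 exceeded 0.1 (range -0.30 to 0.29), and no group pair had all above it. With the replicate number as a block the counts, in the order F test, pyramidal, GIN_Cg against G42_Cg, G30_Cg, CT6_Cg, YFPH_Hip, YFPH_SS, G30_SS, GIN_Hip, G42_LGN, amygdala, both unsorted comparisons, and the differences of differences in hippocampus and by area, were 40, 24, 21, 9, 14, 8, 2, 0, 12, 15, 7, 12, 17, 11 and 0, so none moved by over 1.5 times.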
